A study of Rattus norvegicus with 9 samples.

Results

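The genes described here are 5 standard readouts of cell proliferation, Mki67, Top2a, Cdk1, Ccnb1 and Pcna. They were taken by their Ensembl identifiers (ENSRNOG00000028137, ENSRNOG00000053047, ENSRNOG00000000632, ENSRNOG00000058539 and ENSRNOG00000021264) from a table of 22637 rat genes, and all 5 were present. RNA sequencing of polyadenylated RNA covered 9 SD (Sprague-Dawley) rat kidneys. Of these, 3 were controls, 3 modelled chronic kidney disease (CKD) and 3 were labelled as treated with mesenchymal stem cells (MSCs), stromal cells that can form bone, fat and cartilage. The series title places that treatment, an infusion into the renal parenchyma, in a CKD rat model. The sources used here do not give age, sex, the way disease was induced, the origin and dose of the cells, the sampling time or whether the other kidneys received a mock infusion. The labels do not tie replicates to separate animals. The p-values therefore reflect the variation among these libraries, part of which may be technical.

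Cells that leave rest copy their DNA in S phase and divide in M phase, and many genes needed for these steps are transcribed only while a cell cycles. Pcna encodes the sliding clamp that holds DNA polymerase on its template, and it also serves DNA repair in cells that do not divide. Top2a encodes the topoisomerase that untangles chromosomes before they separate. Cdk1 encodes the kinase that drives entry into mitosis, and Ccnb1 encodes cyclin B1, its activating partner. Mki67 encodes Ki-67, a coat protein of mitotic chromosomes used in pathology to count cycling cells. In adult kidney few tubular cells cycle at rest, and tubular cells can re-enter the cycle after injury.

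Mki67, Top2a, Cdk1 and Ccnb1 had their highest levels in the 3 MSC kidneys. Against controls they were 13.4-fold, 9.79-fold, 4.96-fold and 5.48-fold higher, and all 4 passed the test (adjusted p under 0.05), which called 16.9% of the tested genes higher. Against CKD kidneys the same genes were 4.45-fold, 4.95-fold, 3.38-fold and 2.77-fold higher, and 3 of them passed, where 11.4% of tested genes were called higher. Pcna stayed within a narrow band in all 9 libraries. CKD kidneys differed widely among themselves, and none of the 5 genes passed the test between CKD and control kidneys, where 0% of tested genes did.

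Total counts per library ran from 47633344 to 58546847. They were lowest in MSC kidneys (47633344 to 48767298) and highest in CKD kidneys (56442995 to 58546847), so depth moved with the groups, and its part in the results was not tested beyond the scaling. Levels are given in CPM, the count divided by the library total and set to the scale usual in the field, after scaling by the trimmed mean of M-values (TMM). On the first principal component of all tested genes (56.9% of the variance) CKD replicate 2 scored 9.32, apart from CKD replicates 1 and 3 at -39.9 and -71.6, and folds, differences in the ratio to Pcna and correlations around group means that involve the CKD group are also given without it. Symbols were paired with identifiers for the 5 genes only. Kidney and leukocyte markers, and the wider cell cycle genes, were therefore not analysed here, and the part of a changed cell makeup was not tested. In whole tissue, more cycling cells and more RNA per cycling cell cannot be told apart.

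The stretch around the transcription start is shown for the 5 genes, of which 4 were called higher in MSC than in control kidneys and 1 was not. Whether the sequences bear on that split was not tested. The sequences are RefSeq windows of 300 bases on build GRCr8, with 250 bases before the start and 50 after it, matched by symbol for 5 of 5 genes. The counts rest on the older build Rnor_6.0, so these positions belong to GRCr8 only. The windows are chr1:199952544-199952843 on the minus strand for Mki67, chr10:84473044-84473343 on the minus strand for Top2a, chr20:19265043-19265342 on the plus strand for Cdk1, chr2:33655176-33655475 on the minus strand for Ccnb1 and chr3:139955771-139956070 on the minus strand for Pcna. Each is printed 5′ to 3′ in the direction of the gene. Capitals mark exact matches on either strand to CCAAT (the CCAAT box, bound by NF-Y, which reads ATTGG on the other strand), to TTTGAA or TTTAAA (forms of the cell cycle homology region, an element known from genes of late cell cycle phases) and to GGCGGGA (a core of E2F sites). TTTGGCGC, another E2F form, was searched as well and had no match in the 5 windows.
Mki67: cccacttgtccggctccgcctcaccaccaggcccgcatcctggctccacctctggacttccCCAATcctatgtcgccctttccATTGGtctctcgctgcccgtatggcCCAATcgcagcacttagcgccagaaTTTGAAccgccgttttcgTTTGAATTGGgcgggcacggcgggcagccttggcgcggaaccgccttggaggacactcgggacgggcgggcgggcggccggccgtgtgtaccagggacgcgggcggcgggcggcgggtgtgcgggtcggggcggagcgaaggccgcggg
Top2a: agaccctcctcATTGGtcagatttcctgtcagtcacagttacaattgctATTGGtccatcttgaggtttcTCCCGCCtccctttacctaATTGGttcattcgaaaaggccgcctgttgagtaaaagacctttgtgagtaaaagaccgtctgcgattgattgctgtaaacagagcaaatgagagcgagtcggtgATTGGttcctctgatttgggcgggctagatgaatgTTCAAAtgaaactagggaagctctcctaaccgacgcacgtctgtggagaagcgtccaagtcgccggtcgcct
Cdk1: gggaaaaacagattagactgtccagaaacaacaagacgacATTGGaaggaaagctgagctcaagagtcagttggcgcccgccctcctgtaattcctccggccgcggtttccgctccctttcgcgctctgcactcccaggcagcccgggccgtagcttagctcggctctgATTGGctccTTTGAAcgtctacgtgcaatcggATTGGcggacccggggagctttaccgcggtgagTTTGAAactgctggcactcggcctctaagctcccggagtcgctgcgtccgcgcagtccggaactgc
Ccnb1: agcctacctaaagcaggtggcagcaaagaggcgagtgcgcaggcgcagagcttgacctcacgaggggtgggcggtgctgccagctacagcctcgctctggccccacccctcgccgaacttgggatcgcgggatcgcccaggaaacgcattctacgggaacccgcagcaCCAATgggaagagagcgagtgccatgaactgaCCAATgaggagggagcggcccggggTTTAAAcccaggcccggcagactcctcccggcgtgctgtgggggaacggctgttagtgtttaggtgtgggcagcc
Pcna: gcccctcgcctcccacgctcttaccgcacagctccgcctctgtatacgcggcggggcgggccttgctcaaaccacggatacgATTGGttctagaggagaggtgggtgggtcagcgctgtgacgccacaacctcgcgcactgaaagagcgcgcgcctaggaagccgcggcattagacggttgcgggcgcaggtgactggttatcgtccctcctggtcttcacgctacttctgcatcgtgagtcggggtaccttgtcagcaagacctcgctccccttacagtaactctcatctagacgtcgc

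The Mki67 and Top2a windows held 4 matches to CCAAT each, the Cdk1 window 3, the Ccnb1 window 2 and the Pcna window 1. At least 2 matches to CCAAT were found in 11.2% of the 33469 rat promoter windows of this length, and at least 1 in 37.5%. TTTGAA matched 2 times in Mki67, 2 times in Cdk1 and 1 time in Top2a, and TTTAAA matched 1 time in Ccnb1. In Mki67 a match to TTTGAA and a reverse CCAAT share a base. Of all windows 18.3% held TTTGAA, 13.6% held TTTAAA and 28.3% held either. GGCGGGA was found in the Top2a window only, against 10.5% of all windows, and 0.493% of all windows held TTTGGCGC. At least 2 matches to CCAAT together with TTTGAA or TTTAAA occurred in 3.07% of all windows and in the windows of Mki67, Top2a, Cdk1 and Ccnb1. That combination was put together after the matches had been seen, so the share of 3.07% is no test of it. A match describes letters and not a bound site, and a window without a match says nothing about the factor.

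Mki67 was read 128, 160 and 92 times in control replicates 1, 2 and 3, which is 2.41, 2.97 and 1.89 CPM. CKD replicates 1, 2 and 3 had 4.63, 13.7 and 3.63 CPM, and the MSC replicates 30.8, 42.0 and 25.0 CPM. The 3 groups did not overlap: every CKD kidney lay above every control, and every MSC kidney lay above every CKD kidney. Of all tested genes, 5.96% were higher without overlap in CKD than in control kidneys. The shares were 22.1% for MSC against CKD and 27.2% for MSC against control kidneys. The step of Mki67 from control to CKD kidneys did not pass the test (edgeR adjusted p = 0.756). The lowest MSC value was 8.43 times the highest control and 1.83 times the highest CKD value.

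Top2a, the chromosome-untangling enzyme, had 2.90, 2.34 and 2.32 CPM in the controls. In the MSC kidneys it had 22.6, 30.5 and 20.9 CPM, 2.05 times the highest CKD value at the lowest. CKD replicates 1 and 2 had 4.21 and 10.2 CPM, above all controls, while CKD replicate 3 had 28 counts or 0.504 CPM, below all controls. The 95% Poisson interval of those 28 counts, 18.6 to 40.5, lies below the 113 counts of the lowest control. It covers counting error only and takes each count as an independent read.

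Cdk1, the mitotic kinase, had 1.85, 1.80 and 1.25 CPM in controls, 2.00, 4.46 and 0.719 CPM in CKD kidneys and 9.22, 9.20 and 5.90 CPM in MSC kidneys. Its partner Ccnb1 had 0.998, 1.02 and 1.15 CPM in controls, 1.77, 3.63 and 0.863 CPM in CKD kidneys and 5.46, 7.20 and 4.71 CPM in MSC kidneys. In both genes CKD replicate 3 was the lowest of all 9 libraries and CKD replicate 2 the highest outside the MSC group. MSC values stayed clear of CKD values by a small margin, with the lowest MSC kidney at 1.32 times the highest CKD kidney for Cdk1 and at 1.30 times for Ccnb1.

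Pcna, the replication clamp, had 42.4, 40.1 and 45.5 CPM in controls, 38.9, 38.4 and 44.3 CPM in CKD kidneys and 47.0, 46.4 and 49.6 CPM in MSC kidneys. Its highest library was 1.29 times its lowest, against 22.3 times for Mki67, 60.6 times for Top2a, 12.8 times for Cdk1 and 8.34 times for Ccnb1. The MSC kidneys were the 3 highest of the 9, although only by 1.02 times at the nearest control. RefSeq lists 3 pseudogenes named for Pcna, 1 for Mki67 and 1 for Cdk1. How reads shared with such copies were assigned is not given in the sources used here, so the levels of these 3 genes are uncertain to that extent. RefSeq places no other gene across any of the 5 on GRCr8.

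**Figure D1:**
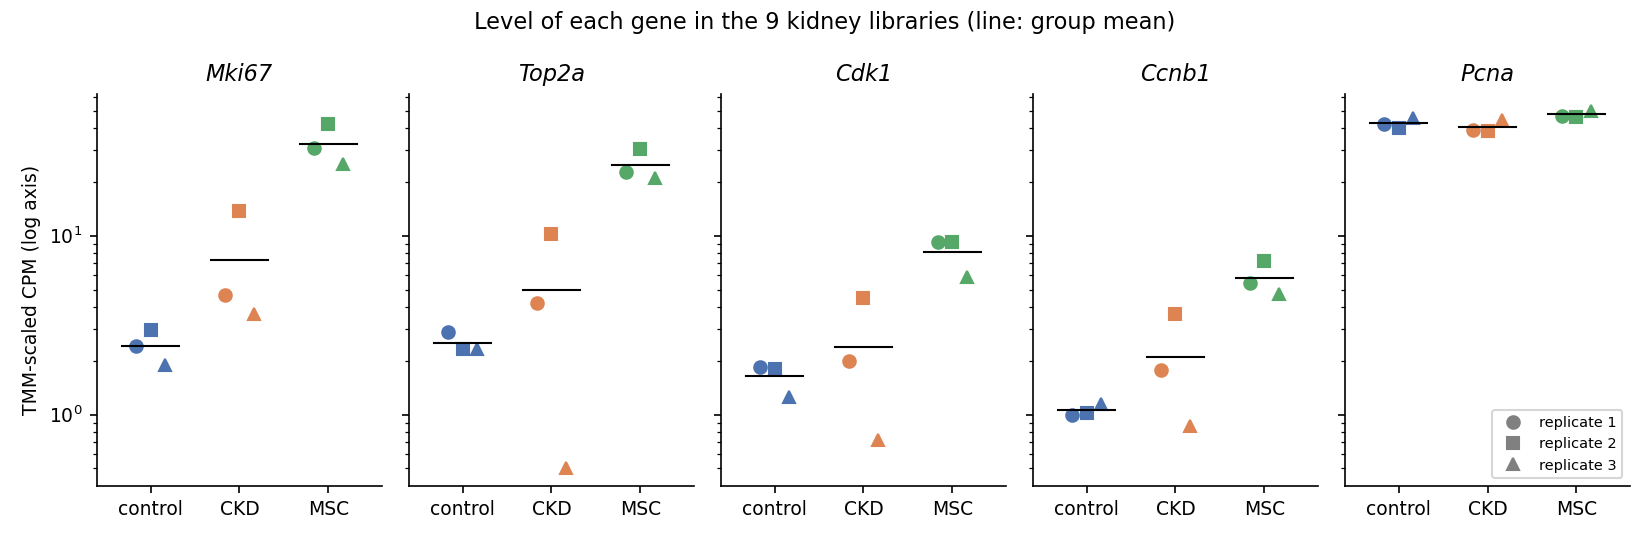
TMM-scaled CPM on a log axis for each gene in the 9 libraries, with groups on the horizontal axis, marker shape giving the replicate number and a line at each group mean (n = 3 a group). In the panels of Mki67, Top2a, Cdk1 and Ccnb1 the MSC kidneys lie above all other libraries and CKD replicate 2 lies above the rest of its group, while Pcna keeps between 38.4 and 49.6 CPM.

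How treated kidneys differed from controls was asked by setting MSC against control kidneys. Of the 5 genes 4 rose (edgeR quasi-likelihood test, adjusted p under 0.05), against 16.9% of the 17584 tested genes. Mki67 averaged 32.6 ± 8.65 CPM in MSC and 2.42 ± 0.542 CPM in control kidneys (SD, n = 3 each), a log2 fold of 3.75 ± 0.51 (SE, edgeR adjusted p = 0.00357). Top2a rose from 2.52 ± 0.33 to 24.7 ± 5.13 CPM, a log2 fold of 3.29 ± 0.79 (edgeR adjusted p = 0.0156).

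For Ccnb1 the log2 fold was 2.45 ± 0.47 (edgeR adjusted p = 0.00794), from 1.06 ± 0.0811 to 5.79 ± 1.27 CPM. Cdk1 rose from 1.63 ± 0.331 to 8.11 ± 1.91 CPM, a log2 fold of 2.31 ± 0.56 (edgeR adjusted p = 0.0161). The fold of Mki67 exceeded that of 97.9% of all tested genes. Pcna averaged 47.7 ± 1.71 CPM in MSC and 42.7 ± 2.70 CPM in control kidneys and did not pass (log2 fold 0.16, 95% interval -0.05 to 0.37, edgeR adjusted p = 0.215). This interval allows a Pcna fold from 0.964 to 1.29.

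The groups did not overlap for 5 of the 5 genes, all higher in MSC kidneys, and the same held for 27.2% of tested genes. Over the 5 genes the median log2 fold was 2.45, beside -0.01 over all tested genes. Leaving out 1 library at a time ended the call of Top2a without control replicate 2 (edgeR adjusted p = 0.0501) or control replicate 3 (edgeR adjusted p = 0.0552). It ended that of Cdk1 without control replicate 3 (edgeR adjusted p = 0.0583). Mki67 and Ccnb1 passed in 9 of 9 such runs.

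What went with the treatment was asked by setting MSC against CKD kidneys. Of the 5 genes 3 rose, Mki67, Cdk1 and Ccnb1, against 11.4% of tested genes (edgeR adjusted p under 0.05). Mki67 averaged 7.31 ± 5.53 CPM in CKD kidneys (SD, n = 3) and was higher in MSC kidneys by a log2 fold of 2.16 ± 0.47 (SE, edgeR adjusted p = 0.0157). Cdk1 and Ccnb1 averaged 2.39 ± 1.90 and 2.09 ± 1.41 CPM in CKD kidneys. Their log2 folds were 1.76 ± 0.55 (edgeR adjusted p = 0.048) and 1.47 ± 0.45 (edgeR adjusted p = 0.0471).

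Top2a had the largest estimated fold of the 5 in this comparison and missed the threshold, with a log2 fold of 2.31 ± 0.75 (SE, edgeR adjusted p = 0.055). Its CKD values spread more than those of 98.8% of tested genes on the log2 scale, with a mean of 4.97 ± 4.90 CPM. Pcna averaged 40.5 ± 3.30 CPM in CKD kidneys and had a log2 fold of 0.23 ± 0.09 (SE, edgeR adjusted p = 0.102). All 5 genes were without overlap between the groups, as were 22.1% of tested genes in the same direction. The median log2 fold was 1.76 over the 5 genes and 0.004 over all tested genes. The MSC libraries serve in this comparison and in that with controls, so the results of both are linked.

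The calls of Cdk1 and Ccnb1 were marginal. Leaving out any single library other than CKD replicate 2 ended both, with edgeR adjusted p up to 0.137 for Cdk1 and 0.14 for Ccnb1. Without CKD replicate 2 the log2 folds of Mki67, Top2a, Cdk1 and Ccnb1 were 2.98, 3.38, 2.57 and 2.13, and all 4 passed (edgeR adjusted p = 0.0028, 0.0145, 0.0088 and 0.00812). Without CKD replicate 3 they were 1.83, 1.77, 1.32 and 1.09, and only Mki67 and Top2a passed (edgeR adjusted p = 0.0455 and 0.0313). The call of Mki67 was lost without CKD replicate 1 (edgeR adjusted p = 0.0556) or MSC replicate 2 (edgeR adjusted p = 0.0548).

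For Top2a the log2 fold was 3.06 with limma-voom (adjusted p = 0.0152) and 2.33 with DESeq2 (adjusted p = 0.00414), so its call depends on the tool. The direction was higher in MSC kidneys for all 5 genes in each of the 9 runs with a library left out and each of the 8 other settings.

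**Figure D2:**
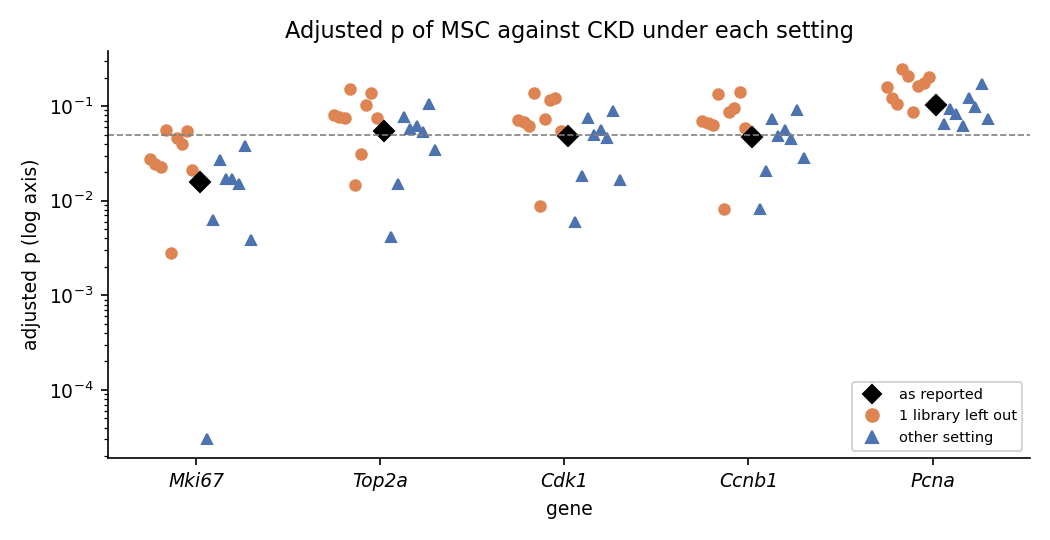
Adjusted p of MSC against CKD on a log axis for each gene, as reported (diamonds), with 1 library left out at a time (circles) and under 8 other settings (triangles), with a dashed line at 0.05. Mki67 lies mostly below the line, Top2a, Cdk1 and Ccnb1 scatter on both sides of it, and Pcna stays above it.

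The effect of the disease model was asked by setting CKD against control kidneys. None of the 5 genes passed by edgeR's quasi-likelihood test, as for 0% of all tested genes, and limma-voom and DESeq2 also called 0 of the 5. Over all genes limma-voom called 0 and DESeq2 called 69 in this comparison. Before adjustment 1 of the 5, Mki67, had p under 0.05, against 6.55% of tested genes. It also was the only member without overlap, higher in every CKD kidney, as were 5.96% of tested genes. Its log2 fold was 1.59 ± 0.48 (SE, 95% interval 0.52 to 2.67, edgeR adjusted p = 0.756), and DESeq2 gave an adjusted p of 0.106.

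The folds of Top2a, Cdk1 and Ccnb1 were 0.98 ± 0.74, 0.55 ± 0.54 and 0.99 ± 0.46 on the log2 scale (SE, edgeR adjusted p = 0.82, 0.858 and 0.756). Their upper bounds, 6.34-fold, 3.44-fold and 4.07-fold, do not exclude differences as large as those seen between MSC and CKD kidneys. Without CKD replicate 2 the log2 folds of Mki67 and Ccnb1 were 0.77 and 0.32, and those of Top2a and Cdk1 turned to -0.09 and -0.26. Pcna had a log2 fold of -0.07 (95% interval -0.29 to 0.14, edgeR adjusted p = 0.889), which allows a fold from 0.821 to 1.10.

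**Figure D3:**
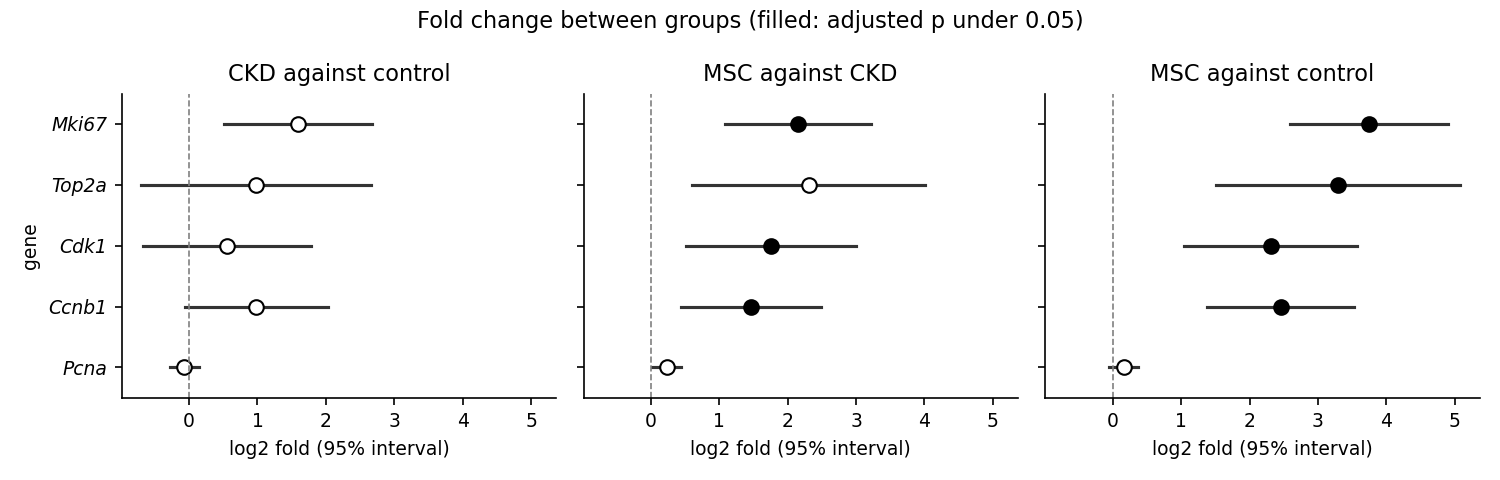
Log2 fold of each gene with its 95% interval in the 3 comparisons, with filled points for an adjusted p under 0.05. None is filled between CKD and control, 3 are filled between MSC and CKD and 4 between MSC and control, and the Pcna intervals are the narrowest.

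The 3 CKD kidneys came in 1 order for Mki67, Top2a, Cdk1 and Ccnb1, with replicate 2 highest, replicate 1 next and replicate 3 lowest. Replicate 2 lay 3.31, 4.33, 3.28 and 2.75 times above the mean of the other CKD kidneys for these genes. On the log2 scale it covered 67.2% (Mki67), 61.6% (Top2a), 63.7% (Cdk1) and 73.0% (Ccnb1) of the distance from the control mean to the MSC mean. For Pcna the same library was the lowest of the 9 after TMM scaling, at 0.956 times the lowest control. Its TMM factor of 1.112 was the highest of the 9, and this rank depends on that scaling. The same kidney stands apart on the first principal component, and how the one bears on the other was not tested.

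CKD replicate 1 covered 25.5%, 22.7%, 13.6% and 30.5% of that distance for Mki67, Top2a, Cdk1 and Ccnb1. CKD replicate 3 divided the genes. Its Mki67 level was 1.22 times the highest control, while its Top2a, Cdk1 and Ccnb1 levels were 0.217, 0.575 and 0.865 times the lowest control.

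Counts set against Pcna within a library do not depend on library scaling. They compare changes and not levels, since no transcript lengths were used. Mki67 had 5.69, 7.40 and 4.15 counts per 100 Pcna counts in controls, 11.9, 35.6 and 8.19 in CKD kidneys and 65.6, 90.6 and 50.5 in MSC kidneys. Top2a had 6.84, 5.83 and 5.09 in controls, 10.8, 26.6 and 1.14 in CKD kidneys and 48.1, 65.9 and 42.2 in MSC kidneys. The MSC kidneys were thus the highest for both ratios, with no overlap. How often other genes do so against Pcna was not computed. By CPM, 27.2% of tested genes were higher without overlap against controls and 22.1% against CKD kidneys.

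Per 100 Pcna counts, Cdk1 ran from 2.75 to 4.49 in controls and from 1.62 to 11.6 in CKD kidneys, and MSC kidneys had 11.9 to 19.8. Ccnb1 ran from 2.35 to 2.54 in controls and from 1.95 to 9.46 in CKD kidneys, and MSC kidneys had 9.50 to 15.5. CKD replicate 2 and MSC replicate 3 were nearly level in both, at 11.6 and 11.9 for Cdk1 and at 9.46 and 9.50 for Ccnb1.

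Between MSC and control kidneys the log2 ratio to Pcna differed by 3.56 for Mki67, 3.10 for Top2a, 2.12 for Cdk1 and 2.23 for Ccnb1. Between MSC and CKD kidneys it differed by 2.14, 2.86, 1.83 and 1.43 for the same genes. Each of these 8 differences had a two-sided exact permutation p of 0.1 (0.133 adjusted over 12 tests), and 0.1 is the smallest p that 3 against 3 libraries allow. Between CKD and control kidneys the differences were 1.42 (Mki67), 0.25 (Top2a), 0.28 (Cdk1) and 0.81 (Ccnb1), with exact permutation p of 0.1, 0.9, 0.8 and 0.4 in that order.

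The differences that involve CKD kidneys moved with 2 of its libraries. Without CKD replicate 2, the log2 ratio to Pcna differed between MSC and CKD kidneys by 2.75 (Mki67), 3.81 (Top2a), 2.49 (Cdk1) and 1.97 (Ccnb1), and without CKD replicate 3 by 1.70, 1.58, 1.10 and 0.856. Between CKD and control kidneys it differed by 0.81, -0.71, -0.37 and 0.26 without CKD replicate 2, and by 1.86, 1.52, 1.02 and 1.38 without CKD replicate 3. Without CKD replicate 1 the Top2a difference between CKD and control kidneys was -0.067. MSC kidneys kept the higher mean ratio for all 4 genes in each of these runs.

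**Figure D4:**
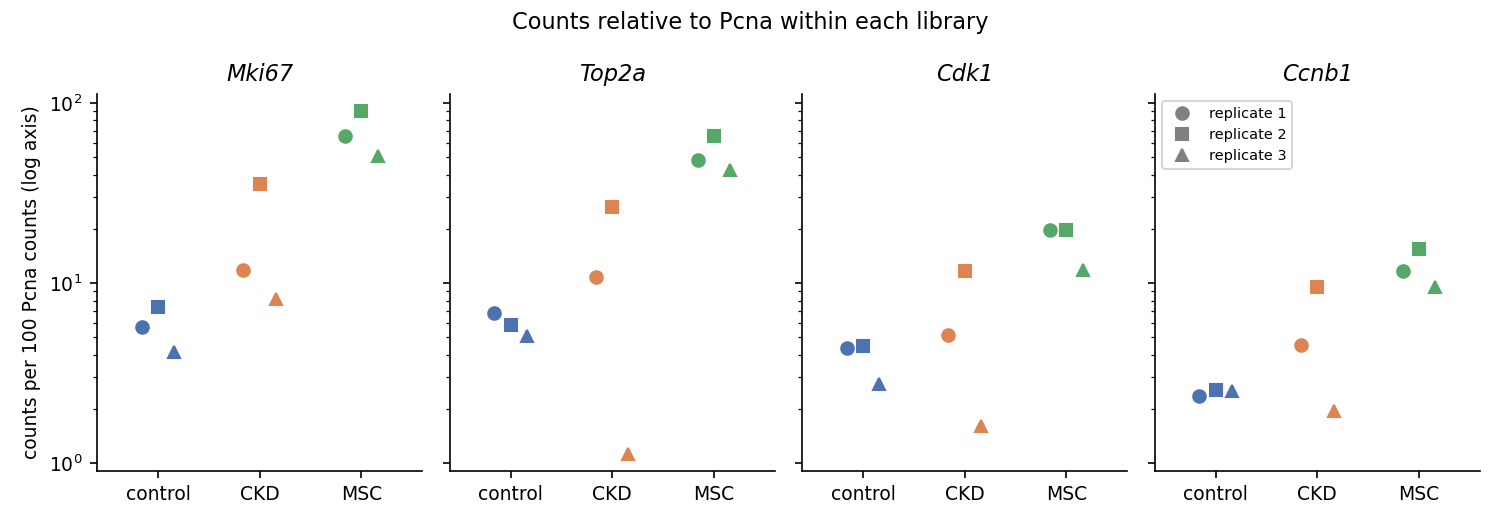
Counts of Mki67, Top2a, Cdk1 and Ccnb1 per 100 Pcna counts in each of the 9 libraries on a log axis, by group, with marker shape giving the replicate number. MSC kidneys are highest in all 4 panels, and CKD replicate 3 lies below the controls for Top2a, Cdk1 and Ccnb1.

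The estimated rise differed among the 4 genes, though with 3 against 3 libraries no difference could pass the exact permutation test at 0.05. From control to MSC kidneys the log2 ratio of Mki67 to Cdk1 went from 0.56 ± 0.17 to 2.00 ± 0.23, and that of Mki67 to Ccnb1 from 1.15 ± 0.41 to 2.48 ± 0.07 (SD, n = 3 each). The log2 ratio of Top2a to Cdk1 went from 0.63 ± 0.25 to 1.61 ± 0.28, and that of Top2a to Ccnb1 from 1.22 ± 0.26 to 2.09 ± 0.05. These 4 ratios did not overlap between the groups, and how often other gene pairs do so was not computed.

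Each of those 4 had an exact permutation p of 0.1 (0.2 adjusted over 18 tests), the smallest that this design allows. The ratio of Cdk1 to Ccnb1, kinase to cyclin, differed by -0.12 between MSC and control kidneys (exact permutation p = 0.8), and that of Mki67 to Top2a by 0.46 (exact permutation p = 0.2). In CKD kidneys the log2 ratio of Mki67 to Cdk1 was 1.20, 1.61 and 2.28, above every control, and replicate 3 lay above all MSC kidneys. The value of replicate 3 rests on 40 Cdk1 counts. Of the 6 ratios, only Mki67 to Cdk1 was without overlap between CKD and control kidneys. How often other gene pairs are so was not computed. The ratio differed by 1.14 between CKD and control kidneys (exact permutation p = 0.1, 0.2 adjusted over 18 tests). Between MSC and CKD kidneys it differed by 0.30 (exact permutation p = 0.5, with overlap). Between MSC and CKD kidneys the other differences were 0.71 (Mki67 to Ccnb1), 1.02 (Top2a to Cdk1), 1.43 (Top2a to Ccnb1) and 0.40 (Cdk1 to Ccnb1), each with an exact permutation p of 0.1, and -0.72 (Mki67 to Top2a, exact permutation p = 0.9). Ratios of Top2a in CKD kidneys rest on replicate 3, where Top2a was low, and had an SD of 1.44 against Mki67.

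Over the 9 libraries, log2 CPM of the 4 genes correlated with Pearson's r from 0.884 (Mki67 and Top2a) to 0.982 (Top2a and Cdk1). The points share the group difference, so these values describe the pattern and are given without a test. Around the group means, where that difference is removed, r ran from 0.787 (Mki67 and Top2a) to 0.948 (Top2a and Ccnb1), and the CKD kidneys supply most of that spread. Without CKD replicate 2 it ran from 0.461 (Mki67 and Top2a) to 0.901 (Top2a and Ccnb1). With Pcna the 4 genes correlated at 0.354 to 0.445 over the libraries and at -0.848 to -0.675 around the group means, or at 0.529 to 0.637 and -0.911 to -0.634 without CKD replicate 2. Pcna varied by only 1.29 times over the 9 libraries, and the TMM factors ran from 0.899 to 1.112. The correlations of Pcna around the group means therefore depend on the scaling, and they were not computed under another scaling.

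Among 17583 other genes, Cdk1 was the 9th most like Top2a and Ccnb1 the 49th most like Mki67, whereas Top2a was the 1455th and Cdk1 the 740th most like Mki67. Many genes outside the 5 thus followed Mki67 more closely than Top2a and Cdk1 did. In the other direction, Mki67 was the 874th most like Top2a and the 800th most like Cdk1. An r above 0.95 with Mki67 was reached by 1.52% of tested genes, with Cdk1 by 1.89% and with Pcna by 0.0227%. The 2 genes with the highest mean correlation to the 5 were ENSRNOG00000006956 (mean r 0.879) and ENSRNOG00000005447 (mean r 0.877), which have no symbol here. ENSRNOG00000006956 had 4.71, 4.96 and 5.29 CPM in controls, 5.58, 8.47 and 4.28 CPM in CKD kidneys and 15.8, 16.5 and 13.5 CPM in MSC kidneys. It showed the order of CKD kidneys seen for the 4 mitotic genes, with smaller steps. The gene was picked by its correlation over these same libraries, so such likeness is in part built into the choice.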

How the data were processed

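Polyadenylated RNA of 9 rat kidneys was sequenced from strand-specific libraries, per the labels' protocols. The submitters' processing notes name cutadapt, HISAT2, StringTie and build Rnor_6.0. For versions, annotation release and counting settings, the sources used here give nothing. Whole-number counts for 22637 Ensembl genes were deposited by the authors, without scaling, and each column matched 1 sample description. Groups came from the sample titles.

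The test was edgeR 4.0.16 under R 4.3.3, with filterByExpr (17584 genes kept, among them all 5 members), TMM scaling and a robust quasi-likelihood fit of the 9 libraries with group as the only term. All tests were two-sided, p-values were adjusted by Benjamini-Hochberg over the whole set of tested genes, and the threshold was 0.05. Standard errors came from the F statistic. Log2 CPM and ratios used a prior count of 2, and ratios among Mki67, Top2a, Cdk1 and Ccnb1 were added to the plan. DESeq2 1.42.0, limma-voom (limma 3.58.1), other scalings, filters and fits, and leaving out each library were tried. The script was tested on simulated data. No replicate pair was alike within counting noise (chi-square per gene at least 62.7).

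The rule named the 5 members and, with no symbols for other genes, the 2 identifiers with the highest mean correlation to them at a log2 CPM of at least 0. None of 47357 genes in the RefSeq table carried an Ensembl identifier, so the cell cycle and cell type lists were not computed. Members and lists were chosen with earlier results of these data known.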

Additional observations from a re-analysis of the deposited data

How the results depend on the processing

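The 4 calls between MSC and control kidneys, and the call of Mki67 between MSC and CKD kidneys, held under each of the 8 settings other than a left-out library. Between MSC and CKD kidneys the calls of Cdk1 and Ccnb1 ended with library size only (log2 folds 1.72 and 1.43, edgeR adjusted p = 0.0745 and 0.0732), without a filter on low counts (1.75 and 1.46, 0.0559 and 0.056) and with only the 2 groups compared (1.74 and 1.45, 0.0895 and 0.0909). The cause was not tested. Top2a passed there with DESeq2 (2.33), limma-voom (3.06) and the replicate block (2.69, edgeR adjusted p = 0.0341), and over its alternatives the adjusted p ran from 0.00414 to 0.105. The replicate block changed no other call. Nothing in the labels pairs libraries by number. Around the group means, 3 of 9 same-numbered pairs correlated above 0.1, and 6 of 9 libraries correlated best with one of their own number. Whether this exceeds what unpaired libraries give was not tested.

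Without 1 library, which leaves fewer samples, the log2 folds between CKD and control ran from -0.094 to 1.52 for Top2a and from -0.26 to 0.98 for Cdk1, the negative values without CKD replicate 2. Between MSC and CKD they ran from 1.83 to 2.98 (Mki67), 1.77 to 3.38 (Top2a), 1.32 to 2.57 (Cdk1) and 1.09 to 2.13 (Ccnb1). Between MSC and control they ran from 3.11 to 3.403 (Top2a) and 2.16 to 2.49 (Cdk1). The log2 ratio to Pcna between CKD and control ran from -0.71 to 1.52 for Top2a (-0.07 without CKD replicate 1) and from -0.37 to 1.02 for Cdk1, and that of Cdk1 to Ccnb1 between MSC and control ran from -0.355 to 0.017 (without control replicate 1). The mean pairwise correlation of the 4 genes was 0.984 without CKD replicate 3. Numbers of called genes ran from 0 to 2, from 1499 to 4652 and from 3077 to 5890 in CKD against control, MSC against CKD and MSC against control. DESeq2 called 69 genes in the first of these. Counts of 28 to 2466 lie behind the values of the 5 genes, and depth limits most the lowest of them, Top2a in CKD replicate 3.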
